A study of Rattus norvegicus with 12 samples.

Results

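Myc, Mxd3, Mxd4, Ccnd1 and Id2 were followed by array in rat fibroblasts with and without c-myc, exposed to rapamycin or its vehicle. They were chosen by symbol, Myc, Mxd3 (older name Mad3), Mxd4 (Mad4), Ccnd1 and Id2, and are 5 of the 1710 genes that could be named, each with 1 probe. Names came from a pair of deposited lists of probes changed by rapamycin, 984 for TGR-1 cells and 1143 for HO15.19 cells. Mxd4 stands in both lists, the other 4 genes in the TGR-1 list alone. The genes could be found by name because the authors had listed them as changed on these same arrays, so a call for rapamycin in TGR-1 cells, or for Mxd4 in HO15.19 cells, is not independent evidence. The other 4 genes were absent from the HO15.19 list, so their lack of a call there is not independent either. The difference between the lines' changes and the change averaged over both lines contain these changes and share that limit. The differences between the lines with either treatment use the same arrays, so they are not independent of the lists either.

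TGR-1 cells (c-myc+/+) are a subclone, labelled hrpt-, of the immortalized embryonic rat fibroblast line Rat-1. HO15.19 cells (c-myc-/-) were derived from TGR-1 by inactivating the gene through homologous recombination, so both lines carry the Rat-1 and TGR-1 background. Cells of each line growing in medium with bovine calf serum received the vehicle DMSO, or rapamycin at 50 nM, over 24 hr. Each of the 4 groups has 3 arrays, 12 in all. The labels give a doubling time of 18 to 21.5 hr for TGR-1 and of 45 to 60 hr for HO15.19. There is 1 line of each genotype, so loss of c-myc and any other difference between the lines cannot be told apart. The methods describe the arrays of a group as independent biological replicates.

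MYC is a basic helix-loop-helix leucine zipper protein that pairs with MAX, binds E-boxes with the core CACGTG and activates genes of growth and ribosome production. The MXD proteins pair with MAX as well, bind the same sites and recruit histone deacetylases through SIN3, so that they oppose MYC there. In mouse, Mxd4 is known for expression in differentiating cells and Mxd3 for expression in dividing cells in S phase. Cyclin D1, the product of Ccnd1, activates CDK4 and CDK6 in G1 in response to serum growth factors. ID2 has a helix-loop-helix but no basic region, and holds basic helix-loop-helix partners away from DNA. Rapamycin inhibits mTOR complex 1, a kinase that couples nutrients and growth factors to translation and cell growth. The comparison of both lines asks whether a response to rapamycin needs c-Myc.

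Promoter windows of Mxd4, Mxd3 and Id2 are shown because MYC and MXD partners of MAX share the E-box. The windows run from 250 bases before to 50 bases after the gene start in the RefSeq annotation of GRCr8, and these 3 of the 5 genes matched the sequence table. Both strands were searched for CACGTG, for the general E-box CANNTG (which includes CACGTG), for CCAAT and for the GC box GGGCGG. Of 33469 rat promoter windows of the same length, 6.42% hold CACGTG, 72.1% CANNTG, 37.5% CCAAT and 33.1% GGGCGG. The Mxd4 window lies at chr14:80786531-80786830 on the plus strand, and capitals mark its CACGTG, at positions −197 to −192 from the start that the window uses, which lies 13 bases inside the annotated gene. The Mxd3 window lies at chr17:9306302-9306601 on the plus strand, and capitals mark its GGGCGG matches. The Id2 window lies at chr6:47470946-47471245 on the minus strand, and capitals mark CCAAT or its reverse complement ATTGG.
Mxd4: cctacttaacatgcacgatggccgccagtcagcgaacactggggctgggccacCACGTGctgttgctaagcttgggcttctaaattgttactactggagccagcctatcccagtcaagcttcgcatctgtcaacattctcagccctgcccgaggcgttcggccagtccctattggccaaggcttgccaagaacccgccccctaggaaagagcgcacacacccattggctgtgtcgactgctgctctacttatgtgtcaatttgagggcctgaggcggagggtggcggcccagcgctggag
Mxd3: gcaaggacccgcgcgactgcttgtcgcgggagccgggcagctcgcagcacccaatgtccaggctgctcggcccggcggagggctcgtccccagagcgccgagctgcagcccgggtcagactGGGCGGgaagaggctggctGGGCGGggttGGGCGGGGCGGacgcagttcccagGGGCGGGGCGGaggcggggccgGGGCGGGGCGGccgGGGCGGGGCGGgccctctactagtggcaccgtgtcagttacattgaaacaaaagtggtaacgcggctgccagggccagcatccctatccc
Id2: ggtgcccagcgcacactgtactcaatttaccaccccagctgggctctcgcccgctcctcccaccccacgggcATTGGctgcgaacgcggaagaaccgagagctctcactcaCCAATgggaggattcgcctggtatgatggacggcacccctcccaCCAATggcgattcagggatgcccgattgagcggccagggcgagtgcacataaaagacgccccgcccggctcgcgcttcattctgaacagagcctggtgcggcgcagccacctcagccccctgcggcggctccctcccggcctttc

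The windows differ in composition and in motifs. Mxd4 holds 1 match to CACGTG, 2 matches to CANNTG (the former among them), 2 to the CCAAT box and 1 to the GC box, at a GC content of 58.7%. Mxd3 holds 10 GC boxes, several of which share a base, 1 CCAAT box and neither E-box, at 73.3% GC. Id2 holds 3 CCAAT boxes, 1 GC box, 1 general E-box and no CACGTG, at 65.3% GC, against a median of 51.7% over the windows searched. These matches describe the letters in the windows only.

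The arrays differed in brightness and correlated closely within groups. The mean bead signal per array lay between 255 and 405 and the number of detected probes between 9605 and 10472, both highest on HO15.19 rapamycin replicate 2. The lowest mean signal, 255, was in the same group, on HO15.19 rapamycin replicate 1. Arrays of a group correlated at no less than 0.992 over the normalized log2 values. Tests ran on 10852 of 22523 probes, those whose detection p lay under 0.05 on 3 arrays or more, and the 5 genes were detected on all 12. The fibroblast markers that could be named (4 of 12) were all tested, with mean log2 signals of 13.11 for fibronectin (Fn1), 12.12 for the collagen Col1a1, 10.06 for Col3a1 and 5.52 for lumican (Lum). The collagens and fibronectin, made in quantity by fibroblasts, were thus present. With rapamycin 1 of these 4 markers was called lower in TGR-1 cells, where 1.45% of all tested probes were called lower. In HO15.19 cells 1 was called higher and 1 lower, where the shares were 2.51% and 2.64%. Among the listed markers of epithelial, endothelial, leukocyte, muscle and fat cells only the monocyte receptor Cd14 had a named probe, at 7.35. Only probes listed as changed by rapamycin had names, so a marker without a named probe is not shown to be absent. Cd14 was not called for rapamycin in either line, but it was higher with rapamycin over both lines (0.35, adjusted p = 0.0267 from limma) and higher in HO15.19 with rapamycin (0.43, adjusted p = 0.0226). Between the lines, Lum (1.61 with DMSO and 2.22 with rapamycin) and Fn1 (1.19 and 0.88) were higher in HO15.19, Col1a1 was higher there with rapamycin (0.35), and Col3a1 was not called. The part of these markers in the results was not tested. A lower signal can mean fewer cells with the transcript or less of it per cell, which cannot be told apart in RNA from whole cultures.

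Myc itself was higher with rapamycin in TGR-1 cells and was lower in HO15.19 than in TGR-1 cells with either treatment. All Myc values are log2 normalized signals of probe ILMN_1371389. TGR-1 arrays with DMSO read 9.07, 8.97 and 9.04, and those with rapamycin 9.53, 9.53 and 9.76. HO15.19 arrays read 7.69, 7.94 and 7.88 with DMSO and 8.19, 7.95 and 8.10 with rapamycin. The 4 groups did not overlap, although only 0.01 separated the highest HO15.19 control array from the lowest HO15.19 rapamycin array.

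Rapamycin raised Myc in TGR-1 cells by 0.58 (standard error 0.12, 1.50-fold), from 9.03 ± 0.05 to 9.61 ± 0.13 (SD, n = 3; adjusted p = 0.00785 from limma). In HO15.19 cells the change was 0.25 with a 95% interval of 0.00 to 0.49 and did not pass (adjusted p = 0.258 from limma), at 7.83 ± 0.13 and 8.08 ± 0.12 (SD, n = 3). The change in HO15.19 minus that in TGR-1 was −0.34 with an interval of −0.68 to 0.01, which did not pass either (adjusted p = 0.524 from limma). Myc was 2.28-fold lower in HO15.19 than in TGR-1 cells with DMSO (−1.19, adjusted p = 5.67e-07 from limma) and 2.88-fold lower with rapamycin (−1.53, adjusted p = 2.66e-08).

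The Myc probe was detected in HO15.19 cells as well. Bead signals of the Myc probe before normalization were 240 to 344 on the HO15.19 control arrays and 271 to 386 on the HO15.19 rapamycin arrays, against 554 to 588 and 766 to 896 in TGR-1 cells. The lowest bead signal that counted as detected was 77.3 to 93.2 over the 12 arrays. Whether the probe lies inside the disrupted part of the gene is stated in none of the sources used, and hybridisation of other transcripts was not tested, so this signal does not check the label.

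Mxd3, one of the MAX partners that oppose MYC, was higher with rapamycin in TGR-1 cells. In HO15.19 cells its change did not pass, and with DMSO its level there exceeded that of TGR-1 cells. Probe ILMN_1357699 gave log2 signals of 7.77, 7.65 and 7.93 in TGR-1 cells with DMSO and of 8.50, 8.32 and 8.35 with rapamycin. The HO15.19 arrays read 8.74, 9.01 and 8.46 with DMSO and 8.76, 8.73 and 8.53 with rapamycin. The HO15.19 groups overlapped, and the lowest HO15.19 control array lay below the highest TGR-1 rapamycin array.

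In TGR-1 cells Mxd3 rose by 0.61 (standard error 0.14, 1.52-fold), from 7.78 ± 0.14 to 8.39 ± 0.09 (SD, n = 3; adjusted p = 0.0181 from limma). The change in HO15.19 cells was −0.06, with an interval of −0.35 to 0.23 (adjusted p = 0.867 from limma), at 8.74 ± 0.28 and 8.67 ± 0.13 (SD, n = 3). Its sign turned to 0.07 without HO15.19 control replicate 2 and to 0.01 without HO15.19 rapamycin replicate 3. The difference between the lines' changes was −0.67 (−1.08 to −0.26), with an unadjusted p of 0.00300 but an adjusted p of 0.227 from limma. Between the lines Mxd3 was 1.94-fold higher in HO15.19 with DMSO (0.96, adjusted p = 3.82e-05), and with rapamycin the difference of 0.28 (−0.01 to 0.57) did not pass (adjusted p = 0.123).

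Mxd4, the other of these repressors, was higher with rapamycin in both lines and was the dimmest of these probes relative to the detection limit of its arrays. Probe ILMN_1365576 gave log2 signals of 5.51, 5.94 and 5.81 in TGR-1 cells with DMSO and of 6.22, 6.39 and 6.51 with rapamycin. In HO15.19 cells it gave 6.29, 6.38 and 6.53 with DMSO and 7.19, 7.0 and 6.70 with rapamycin. In neither line did the rapamycin arrays overlap those with DMSO, while the TGR-1 rapamycin and HO15.19 control arrays did overlap.

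The rise was 0.62 in TGR-1 cells (standard error 0.14, 1.54-fold), from 5.75 ± 0.22 to 6.37 ± 0.14 (SD, n = 3; adjusted p = 0.0207 from limma). For HO15.19 cells it was 0.56 (standard error 0.14, 1.48-fold), from 6.40 ± 0.12 to 6.96 ± 0.25 (SD, n = 3; adjusted p = 0.0307 from limma). The changes differed by −0.06 between the lines, with an interval of −0.49 to 0.37 (adjusted p = 0.960), an interval that leaves room for a difference of either sign. HO15.19 cells held 1.57-fold more Mxd4 signal than TGR-1 cells with DMSO (0.65, adjusted p = 0.00191) and 1.51-fold more with rapamycin (0.59, adjusted p = 0.00386). Its bead signals ran from 90.6 to 226, so the size of each change depended on the background step. Without background correction the rise was 0.30 for TGR-1 cells and 0.34 for HO15.19 cells, and the differences between the lines 0.32 with DMSO and 0.35 with rapamycin.

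**Figure D1:**
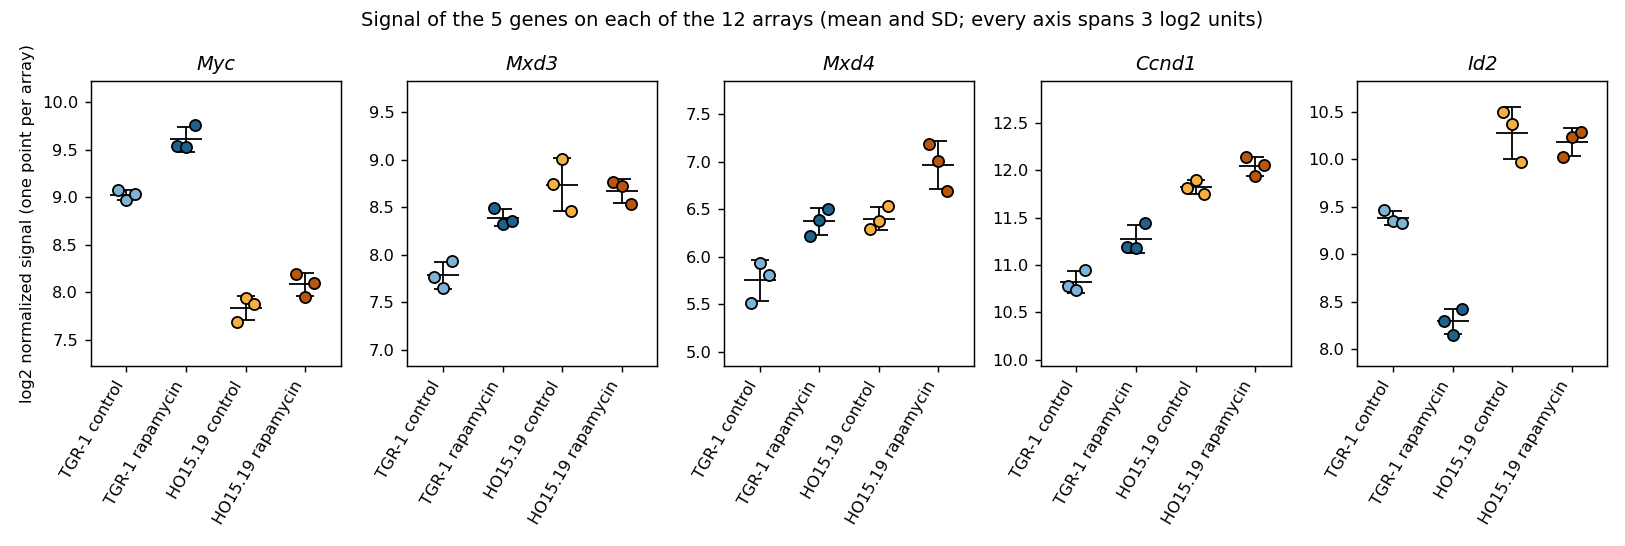
Log2 normalized signal (vertical axes, each spanning 3 log2 units) of the 5 genes on each of the 12 arrays, by group; points are arrays, and bars give the mean and SD of 3 arrays. Id2 falls from 9.38 to 8.29 with rapamycin in TGR-1 cells while the HO15.19 groups overlap, and Myc is lowest in the HO15.19 control group.

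Ccnd1, which encodes cyclin D1, followed the same order of groups as Mxd4 but without overlap. Probe ILMN_1350372 read 10.78, 10.74 and 10.95 in TGR-1 cells with DMSO and 11.19, 11.18 and 11.44 with rapamycin, on the log2 scale. HO15.19 cells read 11.81, 11.89 and 11.75 with DMSO and 12.13, 11.93 and 12.06 with rapamycin. All 4 groups were separate, with a gap of 0.04 between the arrays of the 2 HO15.19 groups.

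Rapamycin raised Ccnd1 by 0.45 in TGR-1 cells (standard error 0.11, 1.36-fold), from 10.82 ± 0.11 to 11.27 ± 0.15 (SD, n = 3; adjusted p = 0.0354 from limma). The HO15.19 change of 0.22, from 11.82 ± 0.07 to 12.04 ± 0.10 (SD, n = 3), had an interval of −0.02 to 0.46 and did not pass (adjusted p = 0.319 from limma). These changes differed by −0.23 (−0.57 to 0.12), which did not pass (adjusted p = 0.705). The difference between the lines was 1.00 with DMSO (interval 0.75 to 1.24, adjusted p = 3.72e-06) and 0.77 with rapamycin (0.53 to 1.01, adjusted p = 5.09e-05), with HO15.19 higher.

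Id2 was the only one of the 5 genes that fell with rapamycin in TGR-1 cells. Probe ILMN_1349207 read 9.46, 9.35 and 9.33 on the TGR-1 arrays with DMSO and 8.30, 8.15 and 8.42 on those with rapamycin, on the log2 scale. HO15.19 arrays read 10.50, 10.37 and 9.97 with DMSO and 10.02, 10.24 and 10.29 with rapamycin. The TGR-1 groups were far apart and both lay below every HO15.19 array, while the HO15.19 rapamycin arrays lay within the range of the HO15.19 control arrays.

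The fall in TGR-1 cells was 1.09 on the log2 scale (a change of −1.09, standard error 0.14, 2.13-fold lower), from 9.38 ± 0.07 to 8.29 ± 0.14 (SD, n = 3; adjusted p = 0.000229 from limma), and ranked 6 from the bottom among 10852 probes. HO15.19 cells gave −0.10 with an interval of −0.39 to 0.19 (adjusted p = 0.768 from limma), at 10.28 ± 0.27 and 10.18 ± 0.14 (SD, n = 3), and 0.01 without HO15.19 control replicate 1. The change in HO15.19 minus that in TGR-1 was 0.99 (standard error 0.19, interval 0.58 to 1.40), ranking 4 from the top. Its unadjusted p was 8.73e-05 and its adjusted p 0.0587 from limma, short of the threshold. Id2 was named through its listing for TGR-1 alone, so the size, rank and p-values of this difference are not independent of that listing. Over the 25 alternatives that could be run the difference was 0.84 to 1.10 and passed in 7, with adjusted p-values from 0.0126 to 1.00. Between the lines, HO15.19 exceeded TGR-1 cells 1.87-fold with DMSO (0.90, adjusted p = 6.70e-05) and 3.71-fold with rapamycin (1.89, adjusted p = 1.47e-08).

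**Figure D2:**
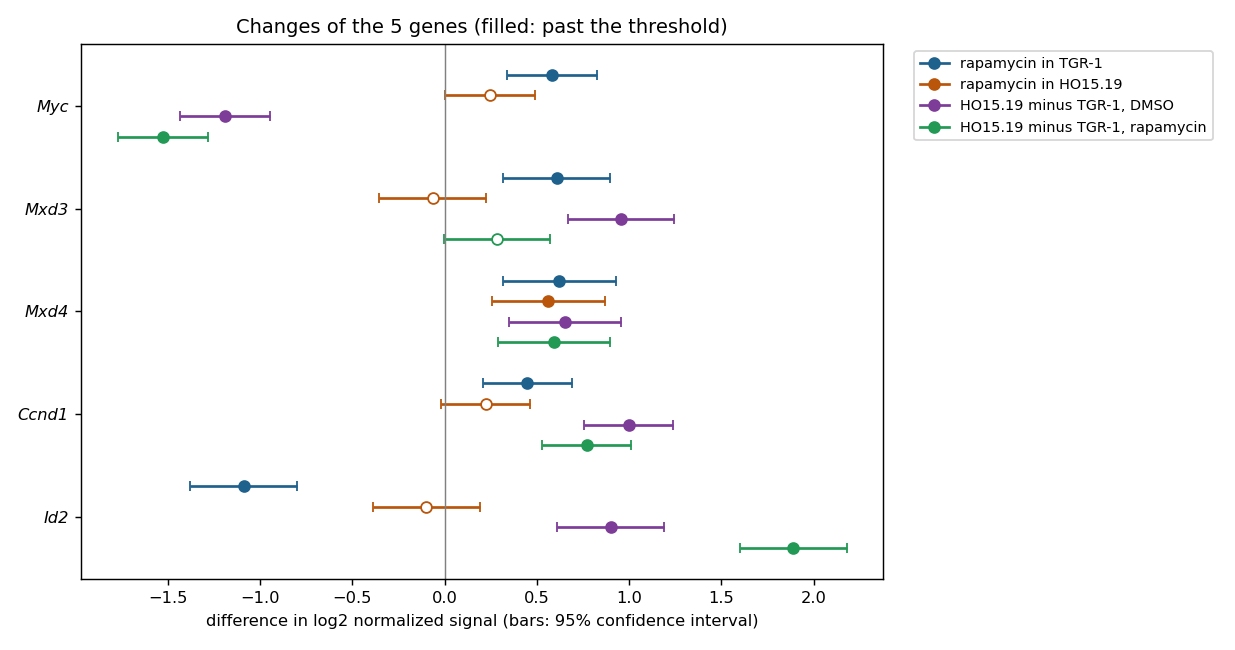
Difference in log2 normalized signal (horizontal axis) of the 5 genes for rapamycin in each line and for HO15.19 minus TGR-1 with each treatment; points are the fitted changes, filled where past the threshold, and bars are 95% intervals. For Id2 the rapamycin changes are −1.09 in TGR-1 and −0.10 in HO15.19, and for Mxd4 they are 0.62 and 0.56.

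A probe was called when its adjusted p (Benjamini-Hochberg over all tested probes) was under 0.05, its unadjusted p at most 0.01 and its change at least 1.2-fold, a threshold taken from the methods. In TGR-1 cells rapamycin called all 5 genes, 4 higher and 1 lower, where 3.96% of all tested probes were called (2.52% higher and 1.45% lower); as the deposited listing rests on this contrast, nothing is read from that count. The median change of the 5 genes was 0.58 and that of all tested probes 0.00. Id2 was called in each of the 27 alternatives, and Myc in 25, the exceptions being centring of the arrays on the median of all probes and the methods' t-test. Ccnd1 lost its call on leaving out TGR-1 control replicate 1 or 2 or any TGR-1 rapamycin array (adjusted p = 0.0686 to 0.162), and also with either median centring, an offset of 1, the 6 arrays of the line alone and the methods' t-test, and so passed in 17 of 27 alternatives. Calls were also lost for Mxd3 without the same arrays (adjusted p = 0.0502 to 0.0933), and Mxd4 without TGR-1 control replicate 1 or TGR-1 rapamycin replicate 2 or 3 (adjusted p = 0.0718 to 0.116). The counts of alternatives include settings that could hardly lose a call. Dropping the fold or the Benjamini-Hochberg condition only loosens the threshold. Leaving out an HO15.19 array removes no TGR-1 data and acts only through the shared filter, normalization and spread.

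In HO15.19 cells 1 of the 5 genes, Mxd4, was called, higher, where 5.14% of all tested probes were called (2.51% higher and 2.64% lower). Mxd4 alone of the 5 stood in the deposited HO15.19 list, which rests on this contrast, so nothing is read from this count either. The members' median change was 0.22, against 0.00 over all tested probes. Mxd4 lost its call without HO15.19 control replicate 1 or 2 or HO15.19 rapamycin replicate 1 or 2 (adjusted p = 0.0710 to 0.123) and passed in 17 of 27 alternatives. Those alternatives again include looser thresholds and fits without a TGR-1 array, which keep all HO15.19 data.

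The difference between the lines' changes was called for none of the 5 genes, and for 0.111% of all tested probes (12 of 10852), with 0.0276% higher and 0.0829% lower in HO15.19. By unadjusted p-values under 0.05 from limma, Mxd3 and Id2 passed, as did 1057 probes in all. Genes called in TGR-1 and not in HO15.19 cells are therefore not shown to differ in their response. Myc, Mxd3, Ccnd1 and Id2 were called in TGR-1 cells alone, as in the listing that named them, with differences of −0.34, −0.67, −0.23 and 0.99. Those differences are not independent of that listing.

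**Figure D3:**
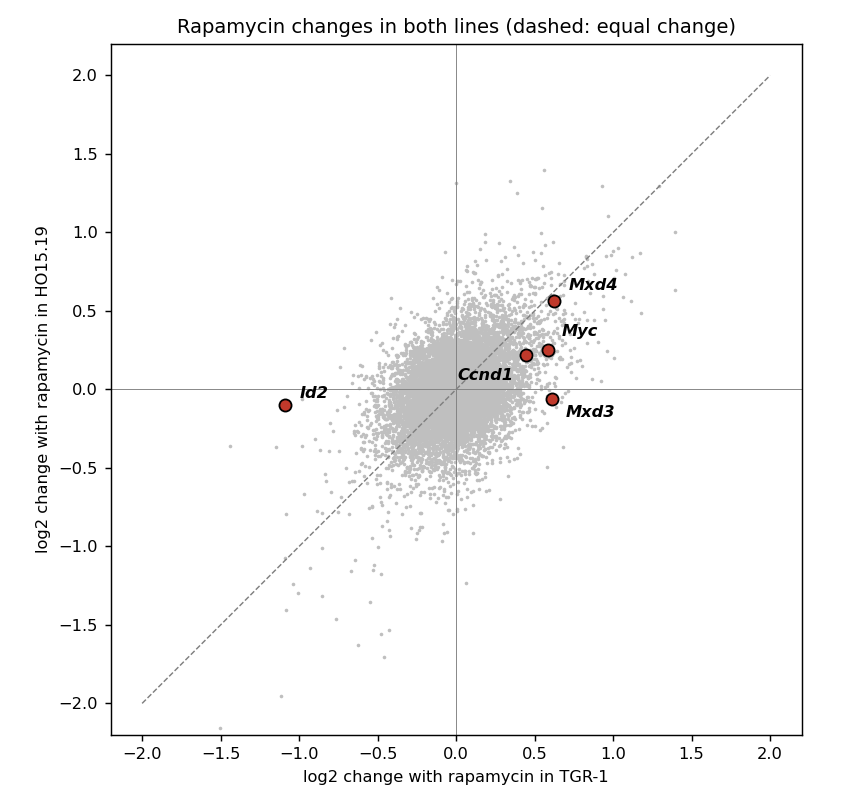
Log2 change with rapamycin in TGR-1 cells (horizontal axis) against that in HO15.19 cells (vertical axis) for the 10852 tested probes (grey) and the 5 genes (red); the dashed line marks equal change. Mxd4 lies near the line at 0.62 and 0.56, and Id2 lies far from it at −1.09 and −0.10.

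Averaged over both lines, 6 arrays against 6, rapamycin called 4 of the 5 genes, where 10.3% of all tested probes were called (5.6% higher and 4.75% lower). The change in TGR-1, for which all 5 genes had been listed, is part of this average, so nothing is read from that count. Mxd4 rose by 0.59 (standard error 0.10, adjusted p = 0.00121 from limma), Myc by 0.42 (0.08, adjusted p = 0.00347) and Ccnd1 by 0.33 (0.08, adjusted p = 0.0130). Id2 fell by 0.59 (a change of −0.59, standard error 0.10, adjusted p = 0.000757 from limma). Mxd3, at 0.27 with an interval of 0.07 to 0.48, did not pass (adjusted p = 0.0837), and passed only without HO15.19 control replicate 2 (adjusted p = 0.0326).

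Between the lines all 5 genes were called with DMSO, 4 higher and Myc lower in HO15.19, where 31.4% of all tested probes were called (15.7% in each direction). With rapamycin 4 were called, 3 higher and Myc lower, where 31.3% of all tested probes were called (15.3% higher and 16.1% lower). The median difference of the 5 genes was 0.90 with DMSO and 0.59 with rapamycin, against −0.01 over all tested probes in each. Every call held in each of the 27 alternatives except that of Mxd4, which missed the threshold under the methods' t-test with either treatment. Here too the alternatives include looser thresholds and fits without an array of the groups not compared. The TGR-1 control arrays enter both the rapamycin change in TGR-1 and the difference between the lines with DMSO, so the values share those arrays. The TGR-1 rapamycin arrays likewise enter both that change and the difference between the lines with rapamycin. As all 5 genes were named through the TGR-1 list, neither count is independent of it, and nothing is read from these counts. Side by side, the rapamycin change in TGR-1 and the HO15.19 minus TGR-1 difference with DMSO were 0.58 and −1.19 for Myc, 0.61 and 0.96 for Mxd3, 0.62 and 0.65 for Mxd4, 0.45 and 1.00 for Ccnd1, and −1.09 and 0.90 for Id2.

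**Figure D4:**
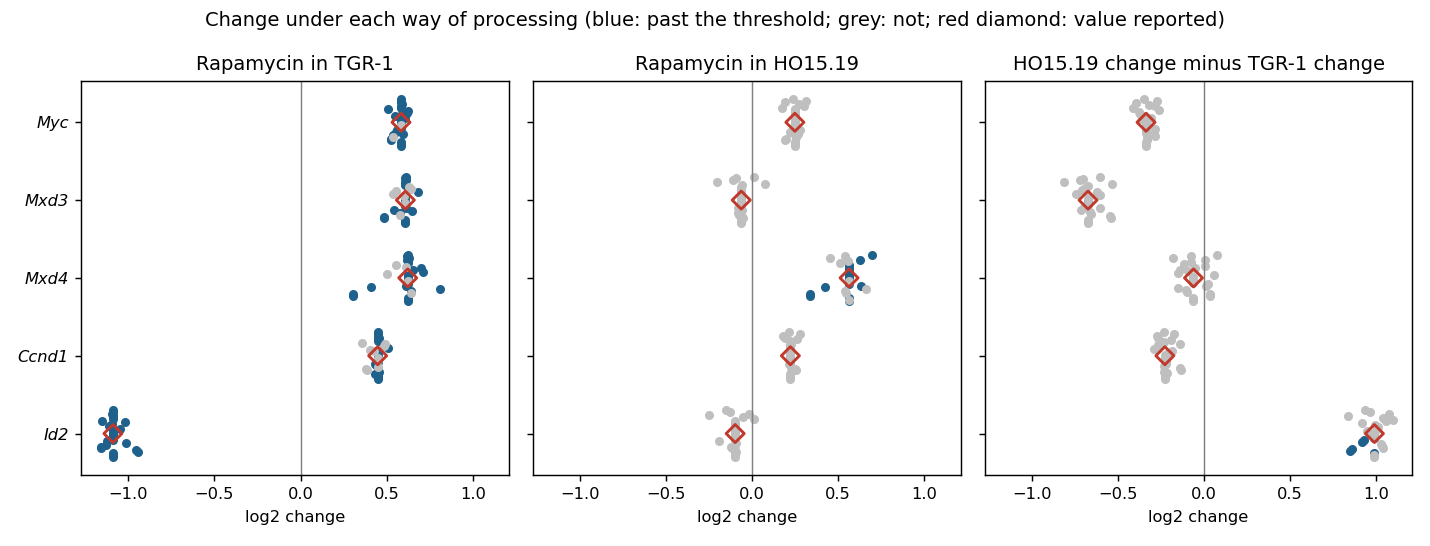
Log2 change (horizontal axis) of the 5 genes under each way of processing the arrays, for rapamycin in TGR-1, rapamycin in HO15.19 and the difference between these changes; blue points passed the threshold, grey points did not, and red diamonds are the values reported. The Id2 change in TGR-1 stays between −1.16 and −0.94, and Mxd4 in TGR-1 moves from 0.30 to 0.81.

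Other genes around these can be counted only where the deposited lists name a probe, that is, where a change with rapamycin had been found on these arrays, so their directions are not independent evidence either. The arrays behind those lists also enter the differences between the lines. The shares of all tested probes called, given above, are repeated beside the counts, but they are not shares of the named probes. None of 21 other genes of the MYC, MAX and MXD network (such as Max, Mxi1 and Mnt) and none of 20 ID relatives and basic helix-loop-helix partners (such as Id1, Id3 and Tcf12) had a named probe. For the stability and translation of MYC, 2 of 16 listed genes were named. In HO15.19 cells 1 of them was called, lower, where 2.64% of all tested probes were called lower. Aurka, a mitotic kinase that can stabilise MYC proteins, fell by 0.49 (a change of −0.49) in HO15.19 cells (adjusted p = 0.0267 from limma), a call lost without HO15.19 control replicate 1 or 2 or HO15.19 rapamycin replicate 1 or 3, and stood at −0.20 in TGR-1 cells (adjusted p = 0.431). Pim3, a kinase of a family that acts with MYC, stood at 0.44 in TGR-1 cells (adjusted p = 0.0721). It was lower in HO15.19 than in TGR-1 cells with DMSO (−0.52, adjusted p = 0.00476), where 15.7% of all tested probes were called lower.

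Around cyclin D1, 4 of 29 listed G1 genes were named. In TGR-1 cells 1 rose, Tfdp2, a dimer partner of E2F factors (0.69, adjusted p = 0.0294 from limma), where 2.52% of all tested probes were called higher. The Tfdp2 change in HO15.19 cells was also positive but not called, and none of the 4 was called for the difference between the lines' changes. In HO15.19 cells 1 fell, the repressive E2F factor E2f8 (−0.40, adjusted p = 0.0407), where 2.64% of all tested probes were called lower. The call of Tfdp2 was lost without TGR-1 control replicate 1 or 3 or TGR-1 rapamycin replicate 1 or 3, and that of E2f8 without any array other than TGR-1 rapamycin replicate 3. E2f1, an activating E2F factor that cyclin D1 kinases release from the retinoblastoma protein, stood at 0.39 in TGR-1 and −0.37 in HO15.19 cells, a difference of −0.76, with none of the 3 past the threshold (adjusted p = 0.0530, 0.0573 and 0.0587). Fbxo4, part of a ubiquitin ligase studied for cyclin D1, stood at 0.02 and 0.43. E2f8 was also lower in HO15.19 than in TGR-1 cells with DMSO (−0.94, adjusted p = 3.72e-06), where 15.7% of all tested probes were called lower.

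A list of serum, AP-1 and beta-catenin genes, drawn up for factors upstream of Ccnd1 and Myc, had 7 of 31 genes named, with a median change of 0.54 in TGR-1 and 0.06 in HO15.19 cells. In TGR-1 cells 5 rose and none fell, where 2.52% of all tested probes were called higher and 1.45% lower. Among them were Ccn1 (1.00, adjusted p = 0.000482 from limma) and Ccn2 (0.55, adjusted p = 0.0150), which encode secreted matrix proteins that serum induces and are not upstream factors. The AP-1 subunit Fos (0.87, adjusted p = 0.00451) and the immediate early factor Egr1 (0.54, adjusted p = 0.0454) rose as well. The count fell to 3 without TGR-1 control replicate 1 or 3 or TGR-1 rapamycin replicate 3, and to 2 without TGR-1 control replicate 2 or TGR-1 rapamycin replicate 2. In HO15.19 cells 1 rose, Ccn1 (0.68, adjusted p = 0.00629), where 2.51% of all tested probes were called higher. HO15.19 minus TGR-1 with DMSO was higher for 4, among them Klf4 (1.02), Ccn2 (0.79) and Ccn1 (0.48), and lower for Fos (−0.57), where 15.7% of all tested probes were called in each direction. The 4 became 2 without TGR-1 control replicate 3 or HO15.19 control replicate 3, and with either median centring.

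BMP and TGF-beta signals, which control Id genes, had 6 of 26 genes named, with medians of 0.39 in TGR-1 and 0.22 in HO15.19 cells. The ligands Tgfb2 (0.62, adjusted p = 0.00682 from limma) and Tgfb3 (0.45, adjusted p = 0.0351) rose in TGR-1 cells, where 2.52% of all tested probes were called higher. Only 1 of these calls was left without any 1 of the 6 TGR-1 arrays or with centring on the tested probes, and 0 with centring on all probes. Fst, which encodes the BMP and activin binding protein follistatin, rose in HO15.19 cells (0.50, adjusted p = 0.00717), where 2.51% of all tested probes were called higher. HO15.19 minus TGR-1 with DMSO was higher for 3, Fst (1.72), Tgfb2 (1.11) and Tgfb1 (0.47), and lower for none, where 15.7% of all tested probes were called in each direction. The 3 became 2 with either median centring, and without TGR-1 control replicate 2 or HO15.19 control replicate 1 or 2.

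Of 31 listed textbook targets that MYC induces, 19 were named. The Myc signal was higher with rapamycin in TGR-1 cells, but only RNA was measured, and MYC protein was not. In TGR-1 cells 8 of these targets fell and 1 rose, with a median of −0.44. Of all tested probes 1.45% were called lower there and 2.52% higher. The largest falls among them were the glycolytic enzymes Pfkl (−0.83) and Ldha (−0.70), the amino acid transporter Slc7a5 (−0.62) and the pyruvate dehydrogenase kinase Pdk1 (−0.61), while Odc1, the first enzyme of polyamine synthesis, rose by 0.56. The 8 became 3 without TGR-1 control replicate 2, 4 without TGR-1 rapamycin replicate 2 or 3, and 5 without TGR-1 control replicate 3 or TGR-1 rapamycin replicate 1. The rise of Odc1 was not called with either centring, nor on leaving out any TGR-1 array except TGR-1 rapamycin replicate 1. HO15.19 cells had 6 falls and 1 rise, with a median of −0.29, where 2.64% of all tested probes were called lower and 2.51% higher, led by Slc7a5 (−1.63), the mitochondrial serine enzyme Shmt2 (−1.15) and the spermidine synthase Srm (−0.68), while Odc1 rose by 1.40. The 6 became 3 without HO15.19 control replicate 1 or 2 or HO15.19 rapamycin replicate 3, 2 with centring on all probes and 3 with centring on the tested probes. None of the 19 passed for the difference between the lines' changes, where 0.111% of all tested probes were called.

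With DMSO, 12 of these 19 targets were lower in HO15.19 than in TGR-1 cells and none was higher, with a median of −0.75, where 15.7% of all tested probes were called in each direction. The targets were named for a change with rapamycin, in which the same control arrays took part, so this count is not independent of the lists. The nucleolar protein Gnl3 (−1.67), the transferrin receptor Tfrc (−1.54), Shmt2 (−1.40) and the ribosome assembly factor Bop1 (−1.28) were lowest. Of the 24 listed targets that MYC represses, 9 were named. In TGR-1 cells 5 rose and 1 fell, with a median of 0.52, where 2.52% of all tested probes were called higher and 1.45% lower. The rises were led by Gadd45g (0.68), the tropomyosin Tpm1 (0.64), Gadd45b (0.61) and Ccn2 (0.55), while Col1a1 fell by 0.49 (a change of −0.49). The 5 became 2 without TGR-1 rapamycin replicate 2 and 3 without TGR-1 rapamycin replicate 3, and the fall of Col1a1 was not called without TGR-1 control replicate 1 or 2 or TGR-1 rapamycin replicate 1. HO15.19 cells gave no rise and 1 fall, Col1a1 (−0.42), with a median of 0.10, where 2.51% of all tested probes were called higher and 2.64% lower. That fall was not called without HO15.19 control replicate 2 or 3 or HO15.19 rapamycin replicate 1. HO15.19 minus TGR-1 with DMSO was higher for Ccn2 (0.79) and Txnip (0.46) and lower for Tpm1 (−0.35, not called without TGR-1 control replicate 1 or 3 or HO15.19 control replicate 1). Of all tested probes 15.7% were called in each direction. The median of these targets was 0.29, and turned to −0.11 with arrays centred on the median of all probes and to −0.10 on that of the tested probes.

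The genes most like each of the 5 were sought among 1708 named genes by the root mean square difference over the 12 arrays, on the log2 scale after each probe's own mean was taken off. Mxd3 was closest to Zer1, a substrate receptor of a ubiquitin ligase (0.09, against a median of 0.50 over the genes compared), to Nfkbia, the inhibitor of NF-kB (0.13), and to LOC300043 (0.15). Zer1 changed by 0.57 with rapamycin in TGR-1 and by 0.11 in HO15.19 cells. Ccnd1 was closest to Hcfc1r1 (0.09, median 0.57), Lhpp, a phosphatase (0.09), and Grn, which encodes progranulin (0.10). Mxd4 was closest to Smpdl3a, a phosphodiesterase (0.14, median 0.56), Serinc3 (0.16) and the mitochondrial fission protein Fis1 (0.17).

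Myc and Id2 had no neighbour as near, but the measure was not scaled to each gene's own spread. The SD over the 12 arrays was 0.75 for Myc and 0.85 for Id2, against 0.42 for Mxd3, 0.48 for Mxd4 and 0.51 for Ccnd1. The closest to Myc were LOC681252 (0.23, median 0.75), Rpl5-ps12, listed as a ribosomal protein pseudogene (0.24), and the caveolar protein Cav1 (0.24), which changed by 0.50 with rapamycin in TGR-1 and by 0.70 in HO15.19 cells. For Id2 they were the cyclin Ccng1 (0.27, median 0.86), Ap1s2, an adaptor subunit of clathrin coats (0.29), and the aldo-keto reductase Akr1b8 (0.34). Ccng1, Ap1s2 and Akr1b8 changed by −0.53, −0.56 and −0.62 in TGR-1 and by −0.28, −0.14 and −0.27 in HO15.19 cells. Nothing about shared control was measured.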

How the data were processed

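Illumina RatRef-12 arrays were hybridised with total RNA, and the bead intensities deposited by the authors came from BeadStudio without normalization. The sources used do not state whether background was taken off. Detection p-values deposited by the authors set each probe against its array's negative controls. A second table of intensities, deposited by the authors, was quantile normalized in BeadStudio and served as an alternative. The authors' comparison tables hold group means, fold changes and p-values from Partek 6.3, of which only probe names were used.

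Signals were processed in R 4.3.3 with limma 3.58.1: neqc (normexp correction with the detection p-values, quantile normalization, log2 with an offset of 16), lmFit with a mean per group over 12 arrays (8 residual and 8.72 prior degrees of freedom), and two-sided moderated tests from eBayes in 6 comparisons. Of these, only the comparison of rapamycin with DMSO in TGR-1 cells was tested on simulated data. Detection at p under 0.05 on 3 or more arrays was needed for a test. The number of arrays limits the precision. The moderated p-values set each change against the spread between arrays within groups, pooled over the 4 groups and moderated over all tested probes.

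Names were updated through Entrez identifiers for 1551 of 1734 probes and accessions for 2, while 181 kept the listed name. A gene with several probes was represented by its brightest over the 12 arrays. The 5 genes were named with all values, the lists with counts and up to 4 called genes a comparison by size, and the 3 most like genes. Beyond this rule, Odc1 and Col1a1 in TGR-1 cells and list genes or values that were not called were named after their values were seen. The members and lists were chosen with earlier results of these data known. Alternatives covered filter, background, normalization, offset, weights, variance, test, threshold, replicate block and each array left out.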

Additional observations from a re-analysis of the deposited data

How the results depend on the processing

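Values of the 5 genes under 27 alternatives numbered 790. Of these, 732 kept their direction and their side of the threshold, 38 lost a call, 9 gained one and 11 turned in sign. The cause was not tested. The alternatives include looser thresholds and fits without an array of groups not compared, which removed no data from the change in question. In TGR-1 cells the 5 called genes became 1 (Id2) with arrays centred on the median of all probes and 1 with the methods' t-test, 4 (without Ccnd1) with centring on the tested probes, an offset of 1 and only the 6 arrays of the line, and 2 to 5 when an array was left out. In HO15.19 cells the 1 called gene, Mxd4, became 0 without a filter, with either median centring, with an offset of 1, with only the 6 arrays of the line and with the t-test, and 0 to 1 when an array was left out. For the difference between the lines' changes, 0 became 1 (Id2) with a detection p under 0.01 on all arrays, without background correction, with the authors' normalized values, with an offset of 50, with array weights and with an intensity trend, and 2 (Id2 and Mxd3) without the Benjamini-Hochberg condition, but stayed at 0 when an array was left out. The 4 genes called over both lines became 2 (Id2 and Mxd4) with arrays centred on the median of all probes. The 11 turns were all in values that did not pass. With an array left out, the Mxd3 change in HO15.19 ran from −0.20 to 0.0736 and that of Id2 from −0.25 to 0.0089. The Mxd4 difference of −0.06 turned to 0.034 without background correction, 0.035 with the authors' values, 0.014 with an offset of 50 and 0.023 with array weights, and ran from −0.18 to 0.0745 with an array left out.

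Over all probes, the called number went from 430 in TGR-1 to between 41 (median of all probes) and 864 (no Benjamini-Hochberg condition), from 558 in HO15.19 to between 13 (t-test) and 986, from 12 for the difference to between 0 and 336, from 3408 between the lines with DMSO to between 2263 and 3783, from 3400 with rapamycin to between 2145 and 3775, and from 1123 over both lines to between 180 and 1305. Centring on the median of all probes turned the split of higher and lower calls from 272 and 286 to 17 and 31 in HO15.19, and from 1700 and 1708 to 897 and 1366 between the lines with DMSO; on the tested probes the latter was 1277 and 1933. Centring on the median of all probes left 0 of the induced MYC targets that fell in TGR-1, 0 of the repressed ones that rose and 1 of the serum and AP-1 genes that rose. Samples share only a replicate number: of 12 same-numbered pairs, 5 had deviations correlated over 0.1 (−0.23 to 0.28), and in 5 the own number was the best match. With the replicate number as a block 428, 593, 11, 3422, 3455 and 1186 probes were called in the same order, and the call of none of the 5 genes changed. A slide block was not run because no file names a chip, nor a mean over probes because each gene has 1; the t-test and the fit of 6 arrays give no value for the difference and the average.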
